A study of Mus musculus with 6 samples.

Results

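Protein tyrosine phosphatases of the receptor (Ptpr) and non-receptor (Ptpn) gene families were compared between 2 mouse malignant mesothelioma cell lines, AC29 and AB1, on an Affymetrix expression array. Genes were taken by symbol, and where a gene had several probe sets, the brightest by its average over the 6 arrays stood for it. This gave 34 of 18193 measured genes, 18 with a Ptpr symbol and 16 with a Ptpn symbol, covered by 86 probe sets in all. The probe sets were thus selected on their mean signal, which is given only as a description, and the family was picked for study with results of the AC29 and AB1 comparison known. Ptprh, Ptprq, Ptprt and Ptpn7 had no probe set under that symbol alone in the annotation used and were not analysed here.

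AB1 was derived from a female BALB/c mouse and used at passage 40, and AC29 from a female CBA mouse and used at passage 60; the labels give mouse ages of 6 to 8 weeks. Both lines grew untreated in RPMI medium with foetal calf serum, in 3 flasks each, and were taken at 80% confluency with 1 array per flask. Each strain is represented by a single line, so line, strain, passage and any processing batch cannot be told apart. Nothing in the labels says that the flasks were independent cultures, and p-values measure only the spread between them.

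Protein tyrosine phosphatases remove phosphate from tyrosine residues and so limit the signals that tyrosine kinases start. Receptor-type members span the membrane and carry ectodomains that meet neighbouring cells, matrix proteoglycans or soluble ligands, while non-receptor members are steered by SH2, FERM, PDZ or proline-rich segments. In epithelial sheets several receptor members sit at cell contacts, and other members are known mainly from lymphocytes, neurons or endothelium.

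Values are log2 signals as deposited, with array medians of 5.76 to 5.81 and Pearson's r across genes of 0.995 to 0.998 within a line and 0.937 to 0.938 between lines. A floor of 6.07 was set at the 95th percentile of 86 probe sets for olfactory, vomeronasal and taste receptors. A line with no array over it was treated as not above background, and a fold against such a line is a lower bound. A line with any array over the floor kept a plain fold, even where its mean was under it. Of 14 mesothelial markers, 13 were above this floor on each AC29 array and 6 or 7 on each AB1 array. By limma, with an adjusted p under 0.05 and at least a 2-fold difference, 10 of the 14 were higher in AC29 and 1, Thbd, was higher in AB1 (9.02 against 4.31, at least 7.69-fold). Krt8, Upk3b, Upk1b, Bnc1, Lrrn4, Wt1 and Muc16 were not above the floor in AB1. Msln (9.67 in AB1 and 10.41 in AC29) and Cav1 (12.28 and 12.99) were above it in both lines and did not pass. Nor did Calb2, which lay near the floor in both (6.43 and 6.58).

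Of the 34 phosphatase genes, 8 had higher signals in AC29 and 5 in AB1. The genes higher in AC29 were the receptor types Ptprg, Ptprd, Ptprf, Ptprv, Ptprb and Ptprj and the non-receptor types Ptpn13 and Ptpn18. The genes higher in AB1 were Ptpn22, Ptprm, Ptpre, Ptpn5 and Ptprn. Here too a gene passed with an adjusted p under 0.05 and at least a 2-fold difference in limma, which was fitted to the whole table and adjusted by Benjamini-Hochberg over all genes. Over all genes tested, 10.9% passed, 5.12% as higher in AC29 and 5.82% as higher in AB1. Among the 11647 genes above the floor in a line, 16.4% passed in either direction. The family's shares were 38.2% in either direction, 23.5% as higher in AC29 and 14.7% as higher in AB1. Nothing is read from the family's shares because the family was chosen with this contrast known. Of the others, 8 had an adjusted p under 0.05 with less than a 2-fold difference (39.1% of all genes had such a p at any size), 6 were measured above the floor without one, and 7 stayed under the floor in both lines. By class, 9 of 18 Ptpr genes and 4 of 16 Ptpn genes passed. The median absolute difference was 0.62 on the log2 scale in the family and 0.20 over all genes.

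**Figure D1:**
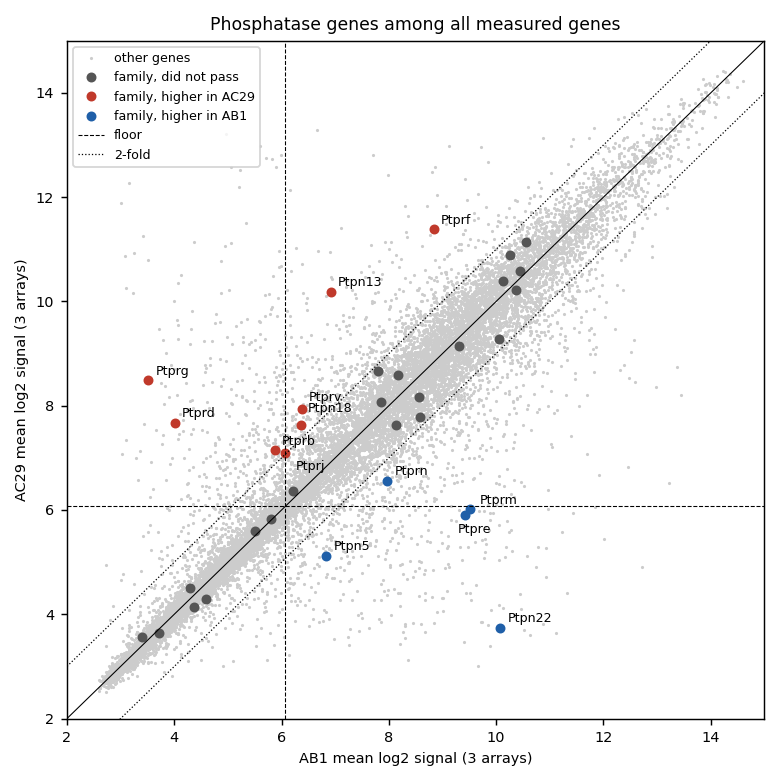
Mean log2 signal of each gene in AB1 (horizontal axis) and AC29 (vertical axis), 3 arrays per line; grey dots are all measured genes, coloured dots the phosphatase genes, dashed lines the floor of 6.07 and dotted lines a 2-fold difference. Ptpn22 lies far to the AB1 side at 10.08 against 3.74, and Ptprg far to the AC29 side at 8.49 against 3.51.

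**Figure D2:**
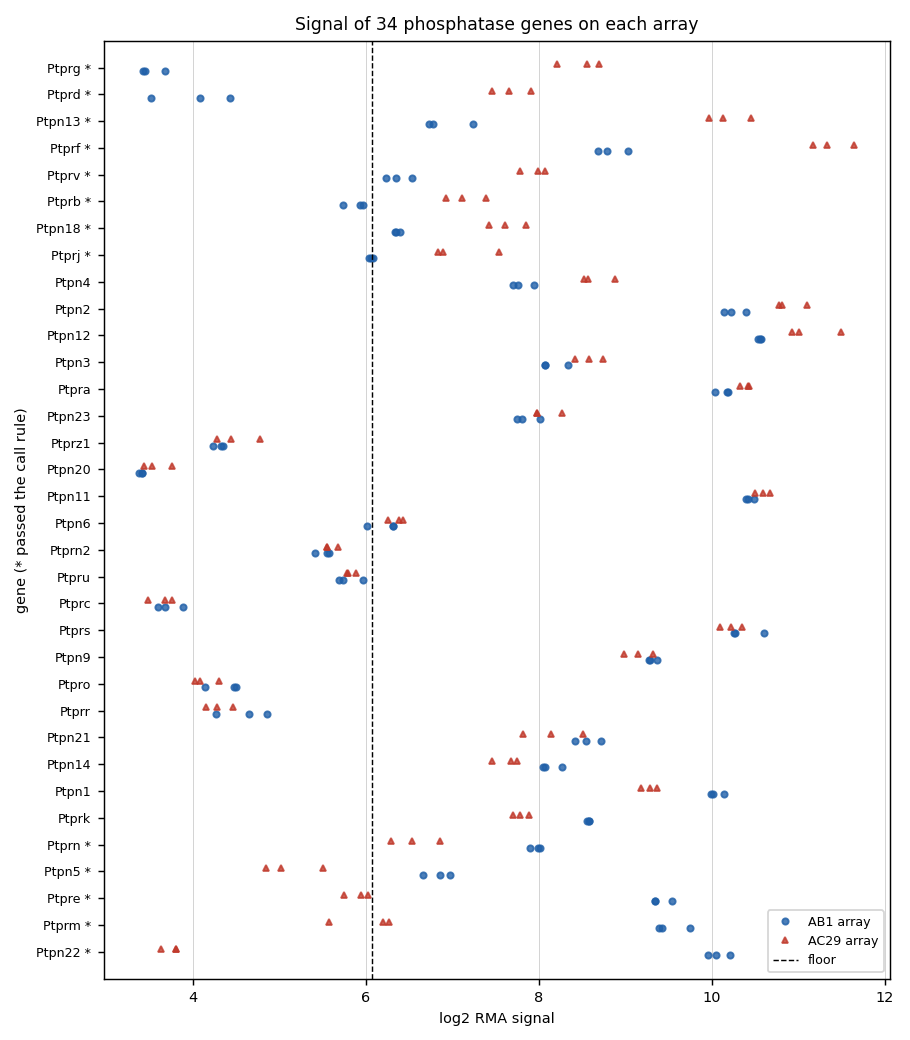
Log2 signal of the 34 genes on each array, with circles for the 3 AB1 arrays, triangles for the 3 AC29 arrays, a dashed line for the floor of 6.07 and an asterisk for genes that passed. Genes are ordered by the difference, from Ptprg (4.98 higher in AC29) to Ptpn22 (a difference of -6.33), and the lines' arrays do not overlap for 23 of the 34, against 50.1% of all genes.

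Among the receptor types with immunoglobulin and fibronectin domains (the LAR group), Ptprd and Ptprf were higher in AC29 and Ptprs did not pass. These receptors bind heparan sulfate proteoglycans and synaptic adhesion proteins and anchor liprins inside the cell. Ptprf, which encodes LAR, read 8.78, 9.03 and 8.68 on the AB1 arrays and 11.33, 11.17 and 11.65 on the AC29 arrays. It was above the floor on every array, with a wide gap between the lines, and was 5.86-fold higher in AC29 (log2 difference 2.55, SE 0.14, limma adjusted p = 6.72e-07). Ptprd read 4.43, 4.09 and 3.51 in AB1 and 7.91, 7.46 and 7.65 in AC29. AB1 was not above the floor, so that Ptprd was at least 3.03-fold higher in AC29 (log2 difference 3.66, SE 0.21, limma adjusted p = 1.04e-06). Ptprs read 10.27, 10.61 and 10.25 in AB1 and 10.36, 10.09 and 10.23 in AC29. Its arrays overlapped, and the 95% interval of the difference ran from -0.42 to 0.12.

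Ptprg had the widest measured log2 difference of the family toward AC29, on a probe set that may cross-hybridise and with AB1 under the floor. It encodes a receptor with a carbonic anhydrase-like ectodomain that binds contactins. Its signal was 3.67, 3.42 and 3.45 in AB1 and 8.70, 8.21 and 8.56 in AC29. No AB1 array was above the floor, and the fold was at least 5.35 (log2 difference 4.98, SE 0.13, limma adjusted p = 7.09e-09). Another Ptprg probe set, without the suffix that marks possible cross-hybridisation, read 3.89 in AB1 and 6.71 in AC29. Its difference of 2.82 was smaller than those of Ptprd (3.66) and Ptpn13 (3.27), and the bound of 5.35-fold was under the 9.62-fold difference of Ptpn13, so the rank of Ptprg depends on the probe set and the floor. The related Ptprz1, a receptor for pleiotrophin known from glia, was under the floor on all arrays.

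Receptors whose ectodomain is a row of fibronectin domains (the R3 group) included Ptprv, Ptprb and Ptprj, each higher in AC29, and Ptpro, which was under the floor on all arrays. Ptprv, the osteotesticular phosphatase, read 6.54, 6.23 and 6.35 in AB1 and 7.99, 7.78 and 8.07 in AC29, a 2.97-fold difference (SE of the log2 difference 0.11, limma adjusted p = 4.11e-06). RefSeq lists mouse Ptprv as a transcribed pseudogene whose interval overlaps Ptpn7, and its single probe set could not be checked against another. Ptprb encodes VE-PTP, known as the phosphatase of endothelial junctions. Its signal was 5.74, 5.96 and 5.93 in AB1, under the floor, and 6.93, 7.39 and 7.12 in AC29, at least 2.11-fold higher (SE of the log2 difference 0.13, limma adjusted p = 3.80e-05). Its partners in endothelium, the VE-cadherin gene Cdh5 (4.93 in AB1 and 4.91 in AC29) and the receptor gene Tek (3.95 and 3.89), stayed under the floor in both.

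Ptprj, which encodes DEP-1, was the gene nearest to the 2-fold minimum. It read 6.06, 6.03 and 6.09 in AB1 and 6.83, 6.89 and 7.54 in AC29, a log2 difference of 1.03 (2.04-fold, SE 0.17, limma adjusted p = 0.000973). The AB1 arrays lay at the floor, with their mean of 6.06 just under it, and AC29 replicate 15 stood over the other AC29 arrays. Without it the difference was 0.80 and Ptprj did not pass. Ptpn4 lay just outside at 0.85.

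**Figure D3:**
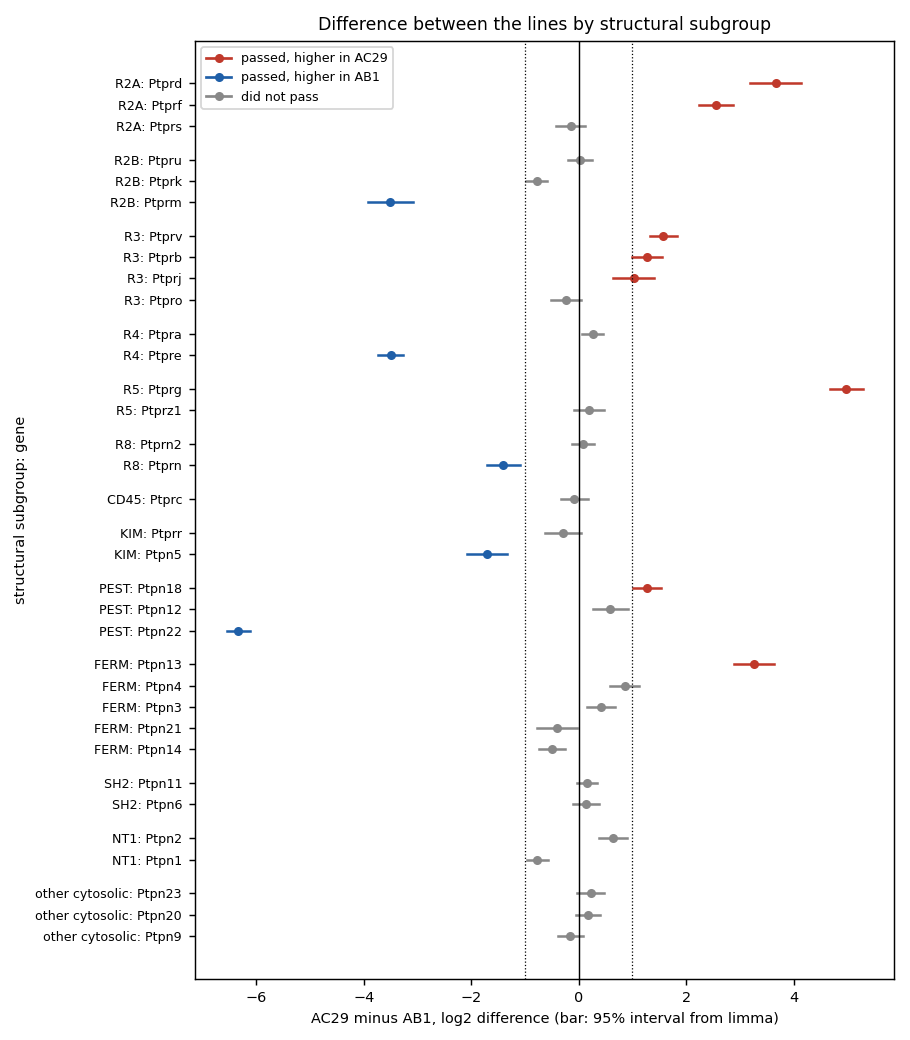
Difference between the lines (AC29 minus AB1, log2) for each gene by structural subgroup, with the 95% interval from limma as a bar and dotted lines at a 2-fold difference. The R2A genes Ptprd and Ptprf (3.66 and 2.55) lie on the AC29 side beside Ptprs (-0.15) near zero. The R2B genes Ptprm (-3.51) and Ptprk (-0.79) lie on the AB1 side beside Ptpru (0.02).

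In AB1 the higher receptor types were Ptprm, Ptpre and Ptprn. Ptprm encodes a receptor with a MAM domain that binds its like on the next cell and associates with cadherins. It read 9.42, 9.75 and 9.39 in AB1 and 6.20, 5.57 and 6.27 in AC29, an 11.4-fold difference (log2 difference -3.51, SE 0.18, limma adjusted p = 5.22e-07). The AC29 arrays lay around the floor, and their mean of 6.01 and replicate 14 were under it. Of the other MAM receptors, Ptprk lay in the direction of Ptprm on its main probe set. Its signal was 8.58 ± 0.01 (SD, n = 3) in AB1 and 7.79 ± 0.09 in AC29. The Ptprk difference of -0.79 (SE 0.08, limma adjusted p = 5.90e-05) was under the 2-fold minimum, and averaged over its probe sets it was -0.076. Ptpru stayed under the floor on all arrays.

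Ptpre can be made as a receptor or, from another promoter, as a cytosolic enzyme, and it acts on Src kinases and potassium channels. It read 9.34, 9.54 and 9.34 in AB1 and 5.95, 5.75 and 6.02 in AC29. No AC29 array was above the floor, and Ptpre was at least 10.1-fold higher in AB1 (log2 difference -3.50, SE 0.10, limma adjusted p = 1.19e-08). Its nearest relative Ptpra, which also activates Src, read 10.19, 10.17 and 10.04 in AB1 and 10.33, 10.44 and 10.42 in AC29. The Ptpra arrays did not overlap, yet the difference was 0.26 (SE 0.08, limma adjusted p = 0.0367) and under the 2-fold minimum. Ptprn encodes IA-2, a catalytically inactive protein of dense-core vesicles in neuroendocrine cells. It read 8.01, 8.00 and 7.90 in AB1 and 6.54, 6.30 and 6.86 in AC29, a 2.65-fold difference (log2 difference -1.41, SE 0.13, limma adjusted p = 2.91e-05). Ptprn2, its close relative, was not above the floor.

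Ptpn22 showed the widest measured log2 difference of the family. It encodes a lymphoid phosphatase with a PEST segment that binds the kinase Csk and dampens T-cell receptor signalling. It read 10.22, 10.05 and 9.96 in AB1 and 3.63, 3.80 and 3.80 in AC29. AC29 was far under the floor, and the fold was at least 16.1 (log2 difference -6.33, SE 0.10, limma adjusted p = 3.49e-10). A single probe set reports this gene. Ptprc, which encodes the leukocyte antigen CD45, had a signal of 3.72 ± 0.15 (SD, n = 3) in AB1 against 3.64 ± 0.15 in AC29. Of 20 leukocyte markers, 12 were under the floor in both lines, Spi1, Itgam, Tyrobp and Vav1 among them, and limma passed 0 of 20. An adjusted p under 0.05 with less than a 2-fold difference was found for 4 of them (also 4 at an unadjusted p under 0.05), named here after their values were seen: Lcp1, Coro1a and Itgb2, under the floor in both lines, and Cd68, at least 1.53-fold higher in AB1 (6.68 against 6.03). The summed linear signal of the marker list was 1186 to 1244 on the AB1 arrays and 1217 to 1242 on the AC29 arrays. Among markers above the floor were Ikzf1 at 7.50 and 7.38 and Ptprcap at 7.03 and 7.17. Fewer cells of a type and less RNA per cell cannot be told apart in such bulk samples.

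The other PEST phosphatases lay on the AC29 side. Ptpn18, which acts on the receptor ERBB2, read 6.39, 6.34 and 6.35 in AB1 and 7.43, 7.85 and 7.61 in AC29, a 2.41-fold difference (log2 difference 1.27, SE 0.11, limma adjusted p = 1.68e-05). Its other probe set was not above the floor and differed by 0.07. Ptpn12, which acts on the adhesion scaffolds p130Cas and paxillin, read 10.57, 10.56 and 10.54 in AB1 and 11.49, 10.93 and 11.02 in AC29. The arrays did not overlap, but the difference of 0.59 (SE 0.14, limma adjusted p = 0.00819) was under the minimum; AC29 replicate 13 was the highest array.

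Ptpn13 was the FERM-domain phosphatase that passed. It encodes a large scaffold with FERM and PDZ domains that binds the death receptor Fas and ephrin-B proteins. It read 6.73, 7.24 and 6.78 in AB1 and 10.45, 9.97 and 10.13 in AC29, a 9.62-fold difference (log2 difference 3.27, SE 0.16, limma adjusted p = 3.70e-07). The other 4 FERM-domain genes, Ptpn3, Ptpn4, Ptpn14 and Ptpn21, differed by -0.50 to 0.85 and did not pass. Ptpn5, the neuronal phosphatase STEP that acts on ERK kinases, was higher in AB1, with 6.97, 6.86 and 6.66 there and 4.85, 5.02 and 5.50 in AC29. AC29 was not above the floor, and the fold was at least 1.69 (log2 difference -1.71, SE 0.16, limma adjusted p = 2.92e-05). Ptprr, which shares its kinase interaction motif, was under the floor on all arrays.

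On their main probe sets, the widely expressed cytosolic enzymes stayed within 2-fold. Ptpn1, which encodes PTP1B and acts on the insulin receptor, read 10.02, 10.15 and 9.99 in AB1 and 9.37, 9.19 and 9.29 in AC29. Its arrays did not overlap (difference -0.77, SE 0.09, limma adjusted p = 0.000109). Ptpn2, which encodes TC-PTP and acts on JAK kinases, went the other way, with 10.23, 10.40 and 10.14 in AB1 and 11.11, 10.78 and 10.81 in AC29 (difference 0.64, SE 0.11, limma adjusted p = 0.00156). Another Ptpn2 probe set, above the floor in AC29 alone, differed by 1.25 and passed the rule over all probe sets. So did a dimmer Ptpn2 probe set under the floor (1.39). Averaged over its probe sets, Ptpn2 differed by 0.9996, just under the minimum. Ptpn11, which encodes SHP2 and carries signals from growth factor receptors to Ras, read 10.42, 10.49 and 10.40 in AB1 and 10.59, 10.68 and 10.50 in AC29. The 95% interval of its difference, -0.04 to 0.35, lay inside the 2-fold range. Ptpn6, which encodes SHP1, a phosphatase of blood cells, read 6.22 and 6.35 on average, near the floor. Ptpn9 and the endosomal protein gene Ptpn23 differed by -0.16 and 0.22 and did not pass. Ptpn20 was not above the floor.

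Other probe sets were read for the 13 genes that passed. Of 8 other probe sets above the floor in a line, 8 had the direction of the gene's main probe set. Of these, 7 passed the same rule over all probe sets. Only those of Ptprf were above the floor in both lines. The others cleared it only through the line where the gene was higher, so their shared direction is not an independent check. Ptpre (-3.74), Ptprf (2.13 and 2.23) and Ptprd (2.31 and 2.33) had other probe sets with differences over 2 on the log2 scale. The second Ptpn13 probe set differed by 1.28. For Ptpn5, the other probe set above the floor differed by -0.82 and did not pass, and another under the floor by -0.045. Ptpn22, Ptprm, Ptprn and Ptprv had no other probe set, and those of Ptprb, Ptprj and Ptpn18 were not above the floor. For Ptprb, a probe set whose highest array was just under the floor differed by 1.09 and passed the rule over all probe sets. A dimmer Ptprb probe set differed by 0.38 and did not pass. Averaged over their probe sets, Ptpn18 (0.67), Ptprj (0.55), Ptprb (0.91) and Ptpn5 (-0.86) fell under the 2-fold minimum, and the differences of Ptprg and Ptprd were 2.25 and 1.24. When limma tested against a 2-fold difference itself, Ptpn18, Ptprj, Ptprb and Ptprn did not pass. Among genes that did not pass, a Ptprk probe set under the floor differed by 1.54 against -0.79 for the main one, and Ptpn4 had probe sets at 0.85 and -0.32.

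**Figure D4:**
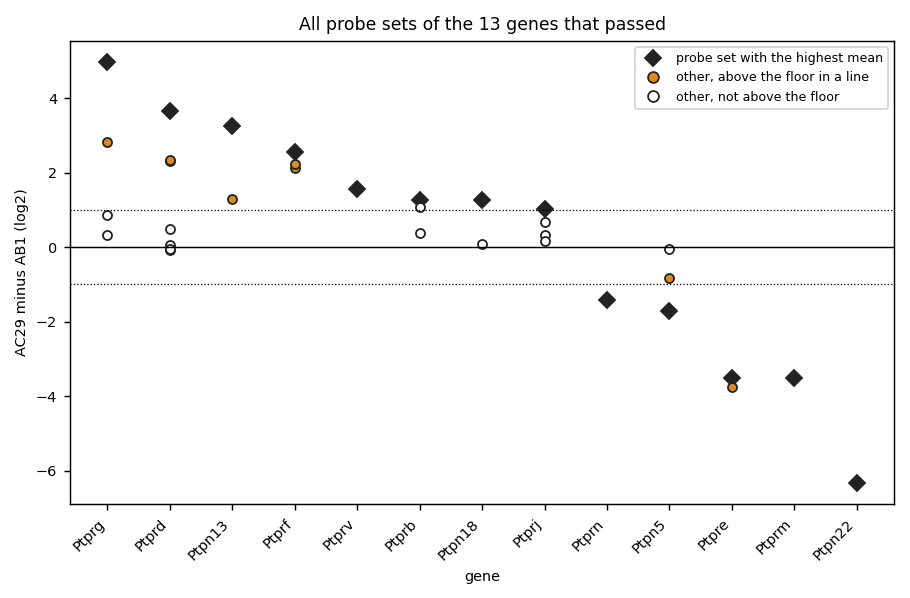
Difference between the lines (AC29 minus AB1, log2) for all probe sets of the 13 genes that passed; diamonds are the probe sets with the highest mean, orange circles others above the floor in a line and open circles others not above it. The orange circles lie on the side of their diamond, as for Ptprg (2.82 beside 4.98) and Ptpre (-3.74 beside -3.50). Except for Ptprf, they were above the floor only in the line where the gene was higher.

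Annotated promoters were set beside these differences to show what sequence the genes with the widest differences start from. RefSeq windows (GRCm38.p6) of 250 bases before the most upstream annotated start were matched to 29 of the 34 genes. Of the 29, 10 had several starts, which the array does not tell apart. The search for family windows left out a chromosome, a filter not applied to the windows of all genes. No window was matched for Ptprd, Ptprb and Ptprv, which were higher in AC29, or for Ptpn2 and Ptpn12, which did not pass. The windows of the 3 genes with the widest difference toward each line among those with a window follow, 5′ to 3′ on the gene's strand, with CpG dinucleotides in capitals.
Ptpn22 (chr3:103859545-103859794, plus strand): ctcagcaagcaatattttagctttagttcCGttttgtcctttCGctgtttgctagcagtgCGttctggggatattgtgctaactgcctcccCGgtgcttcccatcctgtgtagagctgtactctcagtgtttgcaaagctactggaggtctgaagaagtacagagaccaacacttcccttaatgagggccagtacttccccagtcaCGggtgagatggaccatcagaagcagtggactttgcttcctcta
Ptprm (chr17:67354460-67354709, minus strand): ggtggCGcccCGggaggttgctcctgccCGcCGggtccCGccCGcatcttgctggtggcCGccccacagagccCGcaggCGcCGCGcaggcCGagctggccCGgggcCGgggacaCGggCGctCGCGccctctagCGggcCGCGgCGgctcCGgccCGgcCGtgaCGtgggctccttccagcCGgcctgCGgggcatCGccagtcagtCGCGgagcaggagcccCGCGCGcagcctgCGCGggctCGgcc
Ptpre (chr7:135537574-135537823, plus strand): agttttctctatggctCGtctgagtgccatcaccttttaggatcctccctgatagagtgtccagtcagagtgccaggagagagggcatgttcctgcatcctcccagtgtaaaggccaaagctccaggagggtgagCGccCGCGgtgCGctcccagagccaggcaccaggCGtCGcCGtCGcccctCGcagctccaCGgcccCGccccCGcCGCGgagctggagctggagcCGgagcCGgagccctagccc
Ptprg (chr14:11553303-11553552, plus strand): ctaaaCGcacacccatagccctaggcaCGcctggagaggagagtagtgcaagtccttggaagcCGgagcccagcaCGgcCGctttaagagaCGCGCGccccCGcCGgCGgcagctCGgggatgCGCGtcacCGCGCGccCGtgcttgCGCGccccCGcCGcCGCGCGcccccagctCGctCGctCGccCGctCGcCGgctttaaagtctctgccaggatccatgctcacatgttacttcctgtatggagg
Ptpn13 (chr5:103424942-103425191, plus strand): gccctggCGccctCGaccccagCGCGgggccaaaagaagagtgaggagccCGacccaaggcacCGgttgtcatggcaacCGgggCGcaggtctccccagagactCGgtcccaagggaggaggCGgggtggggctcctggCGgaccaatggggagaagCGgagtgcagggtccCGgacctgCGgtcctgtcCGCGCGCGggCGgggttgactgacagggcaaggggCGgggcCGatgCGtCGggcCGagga
Ptprf (chr4:118291398-118291647, minus strand): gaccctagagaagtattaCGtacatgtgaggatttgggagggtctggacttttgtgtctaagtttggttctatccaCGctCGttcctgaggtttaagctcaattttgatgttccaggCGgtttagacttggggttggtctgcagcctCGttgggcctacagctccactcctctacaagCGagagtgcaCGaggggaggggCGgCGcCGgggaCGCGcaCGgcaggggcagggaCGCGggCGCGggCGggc

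The windows differed in CpG content among genes high in the same line. Ptpn22 had 5 CpG in its window, Ptprm 37 and Ptpre 17. Ptprg had 31, Ptpn13 24 and Ptprf 18. Where these genes had other annotated starts, the windows there held fewer, with 2 for Ptpn22, 4 and 5 for Ptpre and 6 for Ptprg. Among other genes that passed, another start held more for Ptpn5 (16 against 5) and Ptprn (12 against 10). It held fewer for Ptprj (3 against 34), so the counts depend on the start taken. Over the 5 genes higher in AB1 the count ran from 5 to 37 (median 10), and over the 5 genes higher in AC29 that had a window from 18 to 34 (median 24). Over the 29 genes the median was 19, against 6 over all 27025 genes of the promoter table, many of which are models outside the array. Over the 7 genes under the floor in both lines the count ran from 3 (Ptpro) to 31 (Ptpru). The AP-1 site TGANTCA, searched on both strands, was found in 0 of 29 windows and in 6.85% of all genes' windows, the TEAD site CATTCC in 3 of 29 and 12.6%, and the GC box GGGCGG in 17 of 29 and 58.6% of the family against 33.0% of all. Those are the most upstream windows; a window of another Ptpre start held 1 AP-1 match. These are matches of letters, not sites of binding.

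Kinases and partners around the family were read from lists chosen with earlier results of these data known. The share of 10.9% set beside the lists covers all genes, and among genes above the floor in a line it was 16.4%. Of 54 receptor tyrosine kinases, the enzymes these phosphatases oppose, 9 passed toward AC29 and 9 toward AB1, or 33.3% of the list beside 10.9% of all genes. Flt4 (at least 7.95-fold), Fgfr3 (6.12-fold), Met (3.85-fold) and Ddr1 (3.11-fold) were among those higher in AC29. Pdgfrb (at least 8.21-fold), Fgfr1 (5.62-fold), Styk1 (4.61-fold) and Igf1r (4.58-fold) were among those higher in AB1. Ryk (10.49 in AB1 and 10.54 in AC29) and Epha2 (9.46 and 9.79) were the brightest that did not pass. Ephb6, named after its values were seen, passed without being above the floor. Of 9 genes of Src family kinases and their regulators, 2 were under the floor in both lines and limma passed 0; in so short a list this is near the share of all genes (10.9%), and the lists were not tested against each other. Frk, named after its values were seen, was the 1 gene with an adjusted p under 0.05 (also 1 at an unadjusted p under 0.05). The brightest were Fyn at 9.74 in AB1 and 9.57 in AC29 and Csk, the Ptpn22 partner, at 8.80 and 8.69.

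Of 39 ligands and ectodomain partners of the receptor types, 4 passed toward AC29 and 5 toward AB1. This was 23.1% of the list beside 10.9% of all genes. Those higher in AC29 were the adhesion molecule Ncam1 (4.22-fold), agrin (Agrn, 3.20-fold), the heparan sulfate proteoglycan Sdc1 (2.63-fold) and the growth factor midkine (Mdk, 2.18-fold). Those higher in AB1 were Thbs1, a ligand described for Ptprj (6.67-fold), the heparan sulfate proteoglycans Gpc4 (4.27-fold), Sdc2 (3.89-fold) and Gpc1 (2.70-fold), and Nrcam, which was not above the floor. The galectins Lgals1 (14.60 in AB1 and 14.23 in AC29) and Lgals3 (13.79 and 13.02) were the brightest that did not pass. Of 21 cytoplasmic partners, 2 passed in each direction, or 19.0% of the list. The liprin-beta gene Ppfibp2 (at least 3.68-fold) and plakoglobin (Jup, 9.20-fold) were higher in AC29, and the liprin-alpha gene Ppfia2 (at least 2.27-fold) and the exchange factor Trio (2.33-fold), a LAR partner, were higher in AB1. The catenin genes Ctnnb1 (12.38 in AB1 and 13.13 in AC29) and Ctnna1 (12.53 and 12.35) did not pass.

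Of 23 docking proteins of SHP1 and SHP2, 1 passed toward AC29 and 4 toward AB1, or 21.7% beside 10.9% of all genes. The adaptor Gab1 was 2.49-fold higher in AC29, while its relative Gab2 (3.09-fold), the insulin receptor substrate Irs1 (3.77-fold), Dok1 (2.67-fold) and the feedback inhibitor Spry2 (6.18-fold) were higher in AB1. Cd47 (10.91 in AB1 and 11.80 in AC29) and Grb2 (10.12 and 9.88) did not pass. Of 16 JAK and STAT genes, 25.0% passed. Stat3 (3.32-fold), Socs3 (2.39-fold) and Stat5a (2.15-fold) passed toward AC29 and Socs2 (13.5-fold) toward AB1. Jak1 (10.42 in AB1 and 9.73 in AC29) and Stat6 (10.17 and 9.41) did not pass. Of 14 partners of the PEST phosphatases, 2 passed (14.3%). They were the cytoskeletal adaptor Pstpip1, at least 4.35-fold in favour of AC29, and Tgfb1i1, a paxillin relative, 2.69-fold in favour of AB1. Paxillin (Pxn, 10.92 and 10.66) did not pass. Among 34 other cysteine-based phosphatases, Eya1 (at least 1.35-fold) was higher in AC29, and the myotubularins Mtmr11 (4.72-fold), Mtmr10 (2.40-fold) and Mtmr6 (2.04-fold) were higher in AB1. Ptp4a2 (12.75 in AB1 and 12.11 in AC29) and Acp1 (11.72 and 11.41) did not pass. The share that passed, 4 of 34, was near the background.

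**Figure D5:**
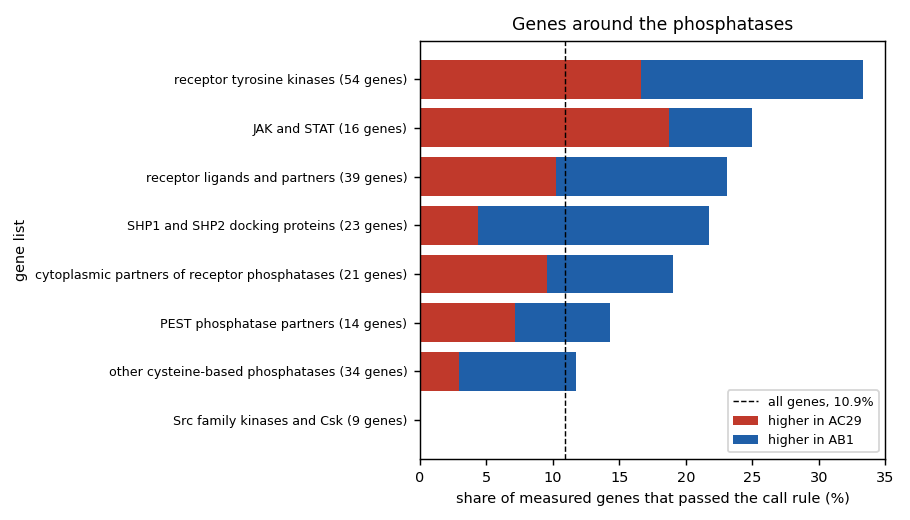
Share of each list's measured genes that passed as higher in AC29 (red) or higher in AB1 (blue), in percent, with the share of all genes (10.9%) as a dashed line. Receptor tyrosine kinases reach 33.3%, with equal parts in both directions, and Src family kinases and Csk stand at 0.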

How the data were processed

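The submitters deposited a table of log2 values for 45101 probe sets on 6 arrays, made, per the submitters' processing notes, with a pipeline in which RMA, GCOS and Partek 6.4 are listed without their roles; RMA corrects background, equalises arrays by quantiles and summarises probe sets on the log2 scale. RMA can understate differences of very dim or bright genes. RNA came from 3 flasks per line, of which 5 ug each went into biotin-labelled cRNA, per the labels' protocols. The 64 control probe sets were left out. Symbols came from the platform annotation (34945 probe sets with 1 symbol, 932 with several, 9160 with none); all 34 family genes matched the RefSeq table by symbol. A model with line as its term was fitted to all probe sets with limma 3.58.1 in R 4.3.3 (lmFit, eBayes, 2-sided; 4 residual and 8.92 total degrees of freedom), and adjusted p-values cover 18193 genes. The model was tested on simulated data. Intervals are 95% from limma; the number of arrays limits precision, with a median SE of 0.10 over all genes. Named genes are every family member, with values on each array for those that passed and the 6 brightest others; in each pathway list (not the cell type markers) up to 4 passing genes per direction above the floor and the 2 brightest others; and the measured genes on each side of passing members. The members, lists and rules were chosen with earlier results of these data known. Alternatives were other normalizations, filters, probe set choices, variance settings and thresholds, other floors and leaving out each array. Probe-level data and scan dates were not used here.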

Additional observations from a re-analysis of the deposited data

How the results depend on the processing

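The same 13 genes, and no other of the family, passed under quantile normalization, centring on array medians, a filter on genes above the floor, no cross-hybridising probe sets, trend and robust eBayes, array weights and an adjusted p under 0.01. With a gene's probe sets averaged, 5 passed as higher in AC29 and 4 as higher in AB1: Ptpn18 (0.67), Ptprj (0.55), Ptprb (0.91) and Ptpn5 (-0.86) fell under the 2-fold minimum, as averaging takes in probe sets with smaller differences. When limma's treat tested against a 2-fold difference, 5 passed as higher in AC29, 4 as higher in AB1 and 1237 of all genes; Ptpn18, Ptprj, Ptprb and Ptprn did not pass. Leaving out each array in turn gave 7 to 8 genes higher in AC29, 5 higher in AB1 and 1990 to 2029 of all genes. Ptpn22, Ptprm, Ptpre, Ptprg, Ptprd, Ptprf, Ptpn13 and Ptprv passed under all 15 settings. Values that turned sign were those of genes that did not pass: Ptpn6 on the mean of its probe sets (-0.026) and without cross-hybridising ones (-0.19), and Ptpru without AB1 replicate 4 (-0.032), AB1 replicate 5 (-0.0081) or AC29 replicate 13 (-0.0087), with 0.11 at most without AB1 replicate 6; the cause was not tested. Of the probe set means, the log2 difference of Ptprg was 2.25 and that of Ptprd 1.24. With the floor at the 90th or 99th percentile of the receptor probe sets (5.68 or 7.23), 28 or 25 genes were above it, and the bound for Ptpn22 was 21.0-fold or 7.21-fold. At the higher floor, folds of Ptprm, Ptpre, Ptprg, Ptprd, Ptprn, Ptprv and Ptpn18 were at least 4.90, 4.54, 2.40, 1.36, 1.67, 1.64 and 1.32. Ptprj, Ptprb and Ptpn5 had no fold there. Those of Ptpn13 and Ptprf did not move. For Ptpn13 this rested on AB1 replicate 5 (7.24), as the AB1 mean of 6.92 was under the higher floor. No paired analysis was possible because the arrays of the lines share no replicate number. The floor limits what can be said of dim genes.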

Other observations

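The genes next to the 13 phosphatase genes that passed were read from the RefSeq gene order, taking the nearest measured gene on each side. Of these 26 neighbours, 3 passed the same rule, near the 10.9% of all genes, and 2 of the 3 moved in the direction of the phosphatase. Bcl2l15, beside Ptpn22, read 6.22 in AB1 and 4.59 in AC29 (at least 1.11-fold), and Rsbn1 on the other side read 8.43 and 7.47 (a difference of -0.96, limma adjusted p = 2.39e-05), under the 2-fold minimum. Tmem86a, beside Ptpn5, was at least 13.1-fold higher in AB1 (9.78 against 5.98). Lgr6, a receptor for R-spondins beside Ptprv, was 4.04-fold higher in AB1, against the direction of Ptprv. The neighbours of Ptprg (Fhit and 3830406C13Rik), Ptprm (Themis3 and Lama1), Ptpre (Clrn3 and 5830432E09Rik), Ptprf (Kdm4a and Hyi) and Ptpn13 (4930429D17Rik and Slc10a6) did not pass. Lama1, Fhit and Clrn3 stayed under the floor in both lines.

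The spread between flasks was read as the SD over 3 arrays. Its median over the family was 0.13 in AB1 and 0.17 in AC29, against 0.09 and 0.12 over all genes. The root mean square distance of the family's values from their line mean was 0.12 to 0.14 on the AB1 arrays and 0.16 to 0.18 on the AC29 arrays. Over all genes it was 0.10 to 0.11 on the AB1 arrays and 0.12 to 0.15 on the AC29 arrays, so AC29 was wider there too.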
